A study of Gallus gallus with 28 samples.

Results

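The comparison described here is a difference between 2 responses to heat in the chick brain. It is the change in RNA under heat in chicks of heat-conditioned parents minus the change in chicks of non-conditioned parents. It rests on 12 of the 28 samples of the series, picked by their labels, though the comparison was chosen with earlier results of these data known. Each lineage gave 3 unchallenged libraries (t0) and 3 libraries taken 6 h after chicks had been moved from a room at 30 °C to one at 36 °C. All came from the anterior preoptic hypothalamus of offspring at day 10 after hatch that had not been conditioned themselves. Conditioning was heat given to embryos in the egg. The protocol written for the methylation samples puts it at 39.5 °C for 12 h a day from embryonic day 7 to 16, against 37.8 °C for control eggs. The labels of the RNA samples speak of conditioned parents and those of the methylation samples of paternal conditioning, so which parent carried the treatment is not settled here. Another 6 RNA libraries, taken 6 h after lipopolysaccharide (LPS) was injected into the third ventricle, entered the model fit and are shown beside some of the genes named. The LPS chicks were kept at 30 °C. No library came from chicks kept for 6 h with neither heat nor LPS, so handling and the passing of time cannot be told apart from heat.

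The preoptic area of the hypothalamus holds neurons that sense brain temperature and receive signals from the skin, and it drives heat loss, which in birds relies on panting and on blood flow to bare skin. Heated cells also make chaperones, proteins that keep other proteins folded, under the control of heat shock factors. Heat given to bird embryos is known to shift how the hatched bird reacts to later heat. A gene whose response depends on the parents would show a change under heat in one lineage that is absent, smaller or opposite in the other. The deposited table pairs no Ensembl identifier with a gene name, so that genes are given by identifier, no role is assigned to them, and the tissue could not be checked against marker genes.

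Depth moved with the comparison. At t0 the non-conditioned lineage had 3379626 to 4589179 counts per library and the conditioned lineage 828424 to 1422688. Under heat the ranges overlapped, at 1145375 to 2725127 and 1214734 to 3199597. Mean depth of the non-conditioned lineage was thus 3.58 times that of the conditioned lineage at t0 and 0.801 times under heat. A set of 7 genes, chosen after their values were seen, also set single libraries apart. Each was over 4 times higher in t0 libraries 2 and 3 of the conditioned lineage, in heated library 2 of the non-conditioned lineage and in LPS library 1 of the conditioned one than in each of the other 14. The summed level of the 7 genes, in CPM (counts per 1e6 counts of a library) after TMM scaling, ran from 733 to 1169 in those 4 libraries and from 8.99 to 52.9 in the others. As 3 of the 4 libraries belong to the comparison, all 7 genes had a negative difference of the heat response. On the log2 scale it lay between -5.27 and -11.9, and 5 were among the 100 genes of smallest p out of 7921 tested. Sign and small p follow in large part from the choice of these genes. The value of -11.9 lies near the floor, as ENSGALG00000017343.5 stood at 0, 0 and 0.84 CPM in the heated conditioned libraries. None of the 7 genes passed the threshold (edgeR adjusted p between 0.101 and 0.169).

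**Figure D1:**
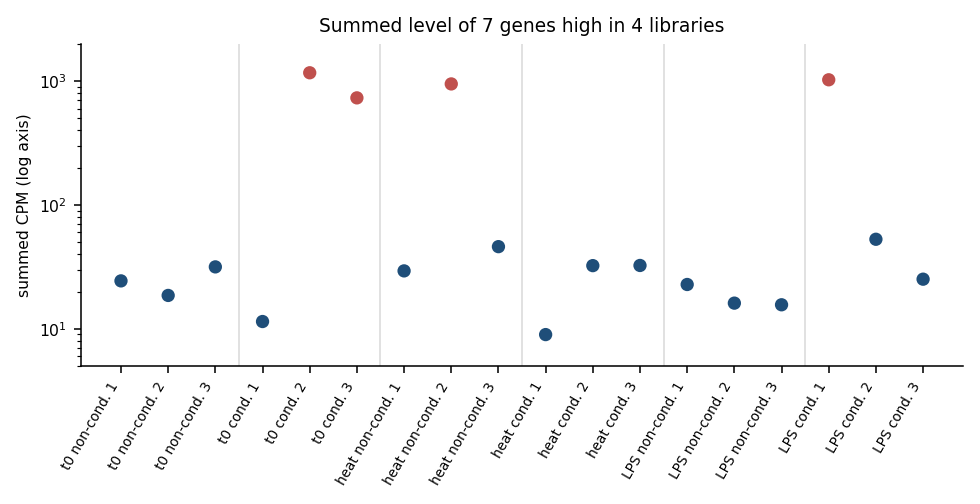
Summed CPM (log axis) of the 7 genes in each of the 18 RNA libraries, in the order of the 6 groups. Red points mark the 4 libraries that stand apart, at 733 to 1169 CPM, and blue points the other 14, all at 52.9 CPM or below.

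No gene's heat response was called different between the lineages. Of 7921 genes tested, edgeR's quasi-likelihood test called 0 (0%) at a Benjamini-Hochberg adjusted p under 0.05. At an unadjusted p under 0.05 there were 1096 genes (13.8%), 527 with a positive difference (6.65%), meaning a more positive change under heat in the conditioned lineage, and 569 with a negative one (7.18%). The smallest adjusted p, 0.0657, was shared by 3 genes, ENSGALG00000011715.5, ENSGALG00000023818.4 and ENSGALG00000029872.1, each with a negative difference. Under an adjusted p of 0.1 there were 10 genes, 4 positive with log2 differences of 0.97 to 1.80 and 6 negative with -1.55 to -4.37. The answer depended on the tool. DESeq2, fitted to the same counts and genes, called 123 (1.55%), 35 positive (0.442%) and 88 negative (1.11%). At an unadjusted p under 0.05 it had 1081 genes (13.6%), near the 1096 of edgeR. DESeq2 was run with its default filters, which can drop genes before p is adjusted. EdgeR and limma adjusted over all 7921 genes. The part of this in the counts was not tested. Limma-voom called 0, with 1148 at an unadjusted p under 0.05. Voom with quality weights called 64 (0.808%), 32 of each sign (0.404% each), with 19.9% at an unadjusted p under 0.05. Of those 64 genes 48 were among the 123, which is 75% of the shorter and 39% of the longer list. The quality weights were highest for t0 library 2 (2.37) and lowest for t0 library 1 (0.533) of the conditioned lineage. Their part in the 64 calls was not tested.

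The single comparisons behind it were as sparse in the same edgeR fit. Heat against t0 gave 4 genes in the non-conditioned lineage (0.0505%) and 0 in the conditioned lineage (0%). The lineages differed in 0 genes at t0 (0%) and in 2 under heat (0.0252%). At an unadjusted p under 0.05 the difference between lineages held 1243 genes at t0 (15.7%) and 466 under heat (5.88%). The change under heat held 1034 genes in the conditioned lineage (13.1%) and 531 in the non-conditioned lineage (6.7%). The comparisons that use the t0 libraries of the conditioned lineage therefore had the larger shares. Of the same 7921 genes DESeq2 called 27 and 44 for heat in the non-conditioned and conditioned lineage. Between lineages it called 245 at t0 and 10 under heat. At an unadjusted p under 0.05 DESeq2 had 514, 1033, 1241 and 431 genes in that order, close to the edgeR counts.

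The 2 genes of smallest p rose under heat in the non-conditioned lineage, with estimates near 0 in the conditioned lineage. Of the 10 genes of smallest p, 6 separated completely by heat in opposite directions, a shape described further on. It was seen in 0.795% and 0.821% of all genes in the 2 directions. Choosing genes by the p of the difference favours this shape. It also favours estimates far from 0, and the intervals given below make no allowance for that choice. ENSGALG00000011715.5 had the smallest p of all. In the non-conditioned lineage it stood at 141, 194 and 200 CPM at t0 and at 694, 424 and 725 CPM under heat. In the conditioned lineage it stood at 220, 234 and 226 CPM at t0 and at 253, 185 and 228 CPM under heat. All 3 heated non-conditioned libraries lay above every other t0 and heat library, while those of the conditioned lineage overlapped between t0 and heat. The share of all genes with this shape was not counted. A rise without overlap in the non-conditioned lineage, whatever the other lineage did, was seen in 6.44% of all genes. The log2 change of ENSGALG00000011715.5 under heat was 1.78 ± 0.22 (SE) in the non-conditioned lineage and -0.02 ± 0.22 in the conditioned one. Their difference was -1.80 ± 0.31, with a 95% interval of -2.45 to -1.16 (edgeR adjusted p = 0.0657). DESeq2 called it (adjusted p = 5.1e-05), as did 10 of 28 alternatives in all, within a range of 4.1e-06 to 0.478, and the estimate stayed between -2.01 and -1.66.

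ENSGALG00000023818.4 had the same shape and the larger size. In the non-conditioned lineage it went from 68.1, 82.5 and 87.3 CPM at t0 to 461, 258 and 565 CPM under heat. In the conditioned lineage it stood at 132, 117 and 113 CPM at t0 and at 159, 103 and 86.9 CPM under heat. Again the 3 heated non-conditioned libraries lay above the other 9, a shape whose share over all genes was not counted. The libraries of the conditioned lineage overlapped. The log2 change was 2.43 ± 0.31 against -0.04 ± 0.32 (SE). The difference, -2.47 ± 0.44, had a 95% interval of -3.39 to -1.54 (edgeR adjusted p = 0.0657). This gene also passed in 10 of 28 alternatives, within a range of 1.1e-06 to 0.478. With LPS it stood at 311, 488 and 321 CPM in the non-conditioned and at 195, 421 and 191 CPM in the conditioned lineage. All 6 LPS libraries thus lay above the t0 libraries of their lineage. LPS was not tested against t0 here, and the share of all genes that separate in this way was not counted. Heated library 2 of the non-conditioned lineage, the lowest of its group in both genes, is one of those that stand apart. Leaving it out, edgeR called exactly these 2 genes (0.0252%), the first with a difference of -2.01 and the second with -2.74.

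**Figure D2:**
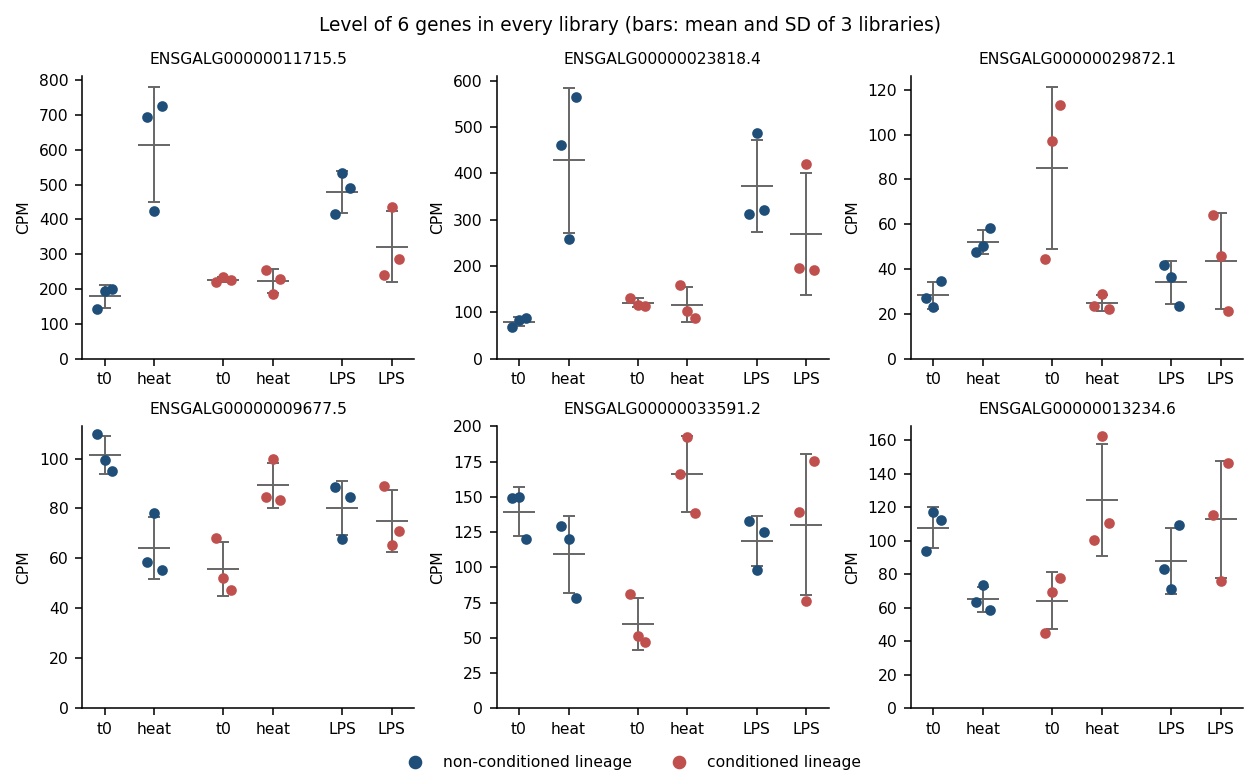
CPM in every library for 6 genes whose heat responses differed with small p (points: libraries, bars: mean and SD of 3). In the first 2 panels heated blue points (non-conditioned lineage) lie above all t0 points and red points (conditioned lineage) overlap between t0 and heat, while in the lower row the conditioned lineage starts lower at t0 and ends higher under heat.

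The other genes called for heat in the non-conditioned lineage had smaller differences. These genes were chosen for their heated libraries, so that the differences are given as a description. ENSGALG00000009433.6 went from 66.9, 50.7 and 59.0 CPM to 178, 107 and 168 CPM in the non-conditioned lineage, without overlap. The conditioned lineage had 53.0, 69.6 and 58.6 CPM at t0 and at 77.6, 48.1 and 73.0 CPM under heat, with overlap. The difference was -1.19 ± 0.31 (edgeR adjusted p = 0.131). ENSGALG00000033789.2 differed in shape from the other 3, since its heated libraries all exceeded its t0 libraries in both lineages. It went from 364, 418 and 438 to 762, 827 and 809 CPM with non-conditioned parents and from 338, 381 and 398 to 530, 445 and 534 CPM with conditioned ones. The log2 changes were 0.98 ± 0.12 and 0.44 ± 0.13, and their difference -0.54 ± 0.18 (edgeR adjusted p = 0.208) had a 95% interval of -0.90 to -0.17. With LPS this gene held 626, 711 and 682 CPM in the non-conditioned and 498, 647 and 595 CPM in the conditioned lineage. Those libraries also lay above the t0 libraries of their lineage. For ENSGALG00000009433.6 the LPS libraries exceeded t0 in the non-conditioned lineage (133, 124 and 156 CPM). They overlapped t0 in the conditioned one (95.4, 63.6 and 82.8 CPM). LPS was not tested against t0, and the share of all genes with such separation was not counted.

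Another shape was opposite estimates in the 2 lineages, with levels that differed at t0. ENSGALG00000029872.1, the third by p, stood at 26.9, 22.96 and 34.7 CPM at t0 and at 47.7, 50.4 and 58.1 CPM under heat in the non-conditioned lineage. In the conditioned lineage it stood at 44.4, 97.4 and 113 CPM at t0 and at 23.7, 28.9 and 21.9 CPM under heat. Heated libraries were thus all higher in one lineage and all lower in the other. The log2 change under heat was 0.89 ± 0.33 and -1.77 ± 0.35, neither past the threshold (edgeR adjusted p = 0.574 and 0.21). The difference was -2.66 ± 0.48 (edgeR adjusted p = 0.0657) and passed in 8 of 28 alternatives, within a range of 2.1e-07 to 0.873. Its t0 level in the conditioned lineage was highest in libraries 2 and 3, which also hold the 7 genes above, and without the 4 libraries that stand apart the difference was -1.78 ± 0.49. With edgeR this gene was the third of 3 genes called (-2.67, 0.0394%) in a fit to the 12 t0 and heat libraries alone. The same 3 genes were called (0.0268%) when no filter for low counts was used.

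The positive differences had the reverse form. ENSGALG00000009677.5, the gene with the smallest p among them, stood at 110, 99.6 and 94.9 CPM at t0 and at 58.7, 78.2 and 55.3 CPM under heat in the non-conditioned lineage. In the conditioned lineage the t0 libraries held 68.0, 52.2 and 47.2 CPM and the heated ones 84.8, 99.8 and 83.5 CPM. Neither lineage overlapped between t0 and heat, and the order of the lineages was opposite in the 2 conditions. The difference was 1.30 ± 0.25, with a 95% interval of 0.77 to 1.83 (edgeR adjusted p = 0.0936). Neither heat change passed on its own (-0.65 ± 0.17 and 0.65 ± 0.18, edgeR adjusted p = 0.32 and 0.263).

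ENSGALG00000033591.2, the next positive gene, had the larger estimate in the conditioned lineage. The t0 libraries there held 80.9, 51.3 and 47.2 CPM and the heated ones 167, 193 and 139 CPM, with a gap between them. The non-conditioned lineage stood at 149, 150 and 120 CPM at t0 and at 129, 120 and 78.0 CPM under heat, with overlap. The log2 changes were 1.44 ± 0.27 and -0.35 ± 0.25. The difference was 1.80 ± 0.37, with a 95% interval of 1.03 to 2.56 (edgeR adjusted p = 0.0936).

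A few more genes are given because they stood behind a short list. DESeq2 without the 4 libraries that stand apart, a fit that leaves 1 t0 library in the conditioned lineage, called 5 genes (0.0631%). These were the pair that rose under heat in the non-conditioned lineage, ENSGALG00000013234.6, ENSGALG00000031797.1 and ENSGALG00000041889.2, and the last 3 are named only for that, with their values known. DESeq2 gave 4.8% at an unadjusted p under 0.05 in that fit, where 3 of the 5 were negative (0.0379%). ENSGALG00000013234.6 held 94.1, 117 and 112 CPM at t0 and 63.3, 73.3 and 58.9 CPM under heat in the non-conditioned lineage, against 45.1, 69.6 and 77.7 and then 100, 163 and 111 CPM in the conditioned one. The libraries separated in opposite directions, with a difference of 1.68 ± 0.35 (edgeR adjusted p = 0.0936). ENSGALG00000031797.1 was its mirror image. It went from 78.3, 59.6 and 82.8 to 130, 103 and 184 CPM in the non-conditioned lineage and from 156, 181 and 185 to 116, 116 and 68.3 CPM in the conditioned one. Its difference was -1.71 ± 0.39 (edgeR adjusted p = 0.124).

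ENSGALG00000041889.2 was counted in some libraries and nearly absent from others of the same group. The t0 libraries of the non-conditioned lineage held 0, 6288 and 0 counts and its heated libraries 0, 0 and 0. The conditioned lineage held 0, 5 and 111 counts at t0 and 2972, 752 and 1 under heat. In the 6 LPS libraries 1 count was found in all. No fold is given for this gene, since a group lies at 0 and single libraries decide the others (edgeR adjusted p = 0.173 for the difference).

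**Figure D3:**
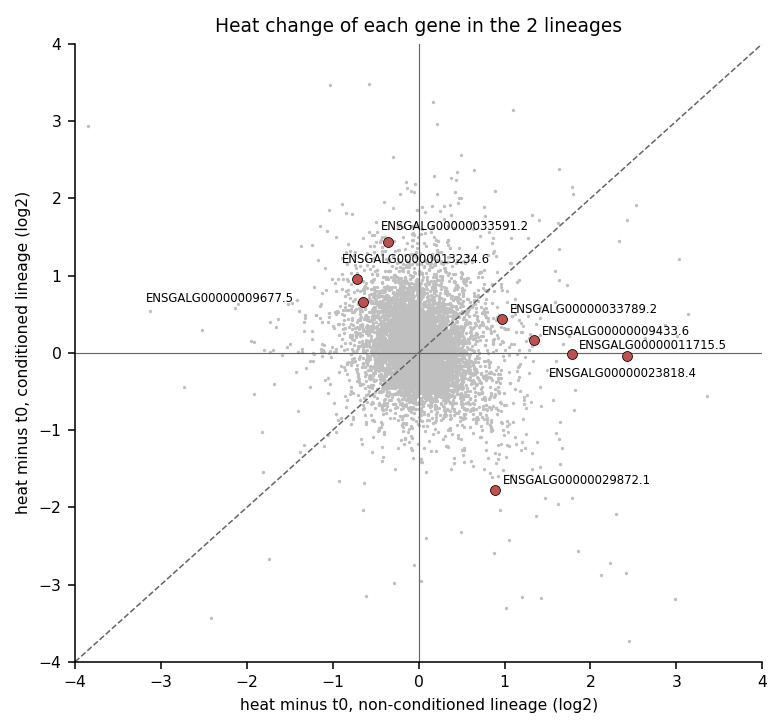
Log2 change under heat in the non-conditioned lineage (horizontal) against that in the conditioned lineage (vertical) for 7904 genes, with 17 genes outside the axes of ±4 left out. The dashed line marks equal changes. Red points are genes named in the text, with ENSGALG00000011715.5 and ENSGALG00000023818.4 near 0 on the vertical axis and ENSGALG00000029872.1 at the lower right.

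Which groups carried the difference was then described over more genes. These counts follow in part from the choice of genes, since a large difference needs changes that are unlike. Among the 569 genes with a negative difference at an unadjusted p under 0.05, the median log2 change under heat was 0.35 with non-conditioned and -0.47 with conditioned parents, and the signs were opposite in 551. Among the 527 with a positive difference the medians were -0.35 and 0.61, with opposite signs in 502. Over all genes the signs were opposite in 2292 of the 3866 with a negative and 2356 of the 4055 with a positive difference. Read the other way, the lineages were farther apart at t0 than under heat in 431 of the 569 (75.7%) and 387 of the 527 (73.4%). Over all genes tested this held in 60.3% of those with a negative and 62.6% of those with a positive difference. Among the 88 negative DESeq2 calls it held in 77 (87.5%) and among the 35 positive ones in 24 (68.6%). Among the 10 genes of smallest p it held in 3 of the 6 negative and 3 of the 4 positive ones. Named genes for which it did not hold include ENSGALG00000013234.6, ENSGALG00000009433.6 and ENSGALG00000033789.2. ENSGALG00000011715.5 and ENSGALG00000023818.4 were not of this kind either. They differed between lineages by -1.46 ± 0.22 and -1.86 ± 0.31 under heat (edgeR adjusted p = 0.0158 and 0.0355), against 0.34 ± 0.22 and 0.61 ± 0.32 at t0. These were the 2 genes counted above as called under heat. Their calls depended on the libraries kept. No gene was called when heated library 1 or 3 with non-conditioned parents, or 2 or 3 with conditioned parents, was left out. Only 1 gene was called when t0 library 2 or 3 of the former or any t0 library of the latter was left out. The lineage difference under heat does not use t0 libraries, which enter only the shared fit. How its size changed in those fits was not examined.

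The LPS libraries gave a view of the lineages that the comparison does not use. With LPS the lineages differed in 0 genes with edgeR (0%; 301 genes, or 3.8%, at an unadjusted p under 0.05) and in 0 with DESeq2 (275 at an unadjusted p under 0.05). For the 569 genes with a negative difference the median lineage difference, conditioned minus non-conditioned, was 0.54 at t0, -0.30 under heat and 0.10 with LPS. For the 527 with a positive one it was -0.62, 0.34 and -0.05. The genes were chosen for a contrast of t0 with heat, which moves the medians at t0 and under heat away from 0. Whether the choice also moved the median with LPS was not tested. Over all genes the medians were 0.22, -0.14 and 0.04 for negative and -0.28, 0.14 and -0.03 for positive differences, in the same order. The sign with LPS matched the sign at t0 in 399 of the 569 genes and 304 of the 527. Over all genes it matched in 2294 of the 3866 with a negative and 2320 of the 4055 with a positive difference. Among the 100 genes of smallest p it matched in 52 of 69 negative and 10 of 31 positive ones. In those 100 genes the sign with LPS matched the sign under heat in 17 negative and 21 positive ones. In the conditioned lineage LPS library 1 stands apart, as do t0 libraries 2 and 3. The part of these libraries in the matches was not tested. Of the genes named and not at 0 in a group, ENSGALG00000009433.6 had the lineage difference with LPS farthest from 0, at -0.75 ± 0.21. Its levels were 133, 124 and 156 CPM in the non-conditioned and 95.4, 63.6 and 82.8 CPM in the conditioned libraries, with no overlap. ENSGALG00000011715.5 had -0.59 ± 0.21, from 414, 533 and 490 against 240, 436 and 287 CPM, with overlap, and neither passed (edgeR adjusted p = 0.999 each). Its 6 LPS libraries also lay above the t0 libraries of their lineage, a separation whose share over all genes was not counted.

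Some genes separated completely by heat and in opposite directions. In 63 genes (0.795%) all heated libraries were above all t0 libraries with non-conditioned parents and below them with conditioned parents. In 65 genes (0.821%) the reverse held. Separation in the same direction was seen in 25 genes for a rise (0.316%) and in 18 for a fall (0.227%). Taken alone, the non-conditioned lineage had 510 genes with all heated libraries higher (6.44%) and 602 with all lower (7.6%). The conditioned lineage had 647 (8.17%) and 564 (7.12%). The 63 genes had a median difference of -0.82 and a median level of 108 CPM, and 19 of them exceeded 2-fold. The 65 had a median difference of 1.01 and a median level of 41.0 CPM, and 33 exceeded 2-fold. None of these genes was called by edgeR, which called 0 of all 7921. In edgeR 57 of the 63 and 58 of the 65 had an unadjusted p under 0.05, against 13.8% of all genes. Those counts follow in large part from the choice of genes, since the same libraries gave the separation and the p.

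The precision of the difference rose with the level of the gene. Over the 7921 genes the median standard error was 0.39 on the log2 scale and the 95% interval lay within a 2-fold difference in either direction for 2890 genes (36.5%). This held for 668 of 864 genes at 200 CPM or more (77.3%), 1376 of 2082 at 50 to 200 CPM (66.1%), 842 of 3112 at 10 to 50 CPM (27.1%) and 4 of 1863 below 10 CPM (0.215%). A difference of under 2-fold was therefore measured as such mainly in abundant genes. Estimates over 2-fold were most frequent where the error was largest, in 27.2% of the genes below 10 CPM and 2.66% of those at 200 CPM or more.

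The centre of the differences also moved with level. The median over all genes was 0.01, but it was 0.16 below 10 CPM, 0.06 at 10 to 50 CPM, -0.02 at 50 to 200 CPM and -0.16 at 200 CPM or more. At 200 CPM or more 569 of 864 genes had a negative difference. With median-ratio factors the medians of the lowest and the highest class were 0.14 and -0.19, and without the 4 libraries that stand apart 0.17 and -0.11. When t0 library 1 with conditioned parents was left out, the lowest class had 0.27, the class of 10 to 50 CPM 0.11 and the highest -0.18. With all libraries thinned to 828424 counts the highest class, with the same number of genes, had -0.15. The lowest class then had 0.13, but over 553 genes that passed the filter in place of 1863. Differences near these sizes in abundant genes lie near the centre of their class. The cause of the shift with level was not tested.

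**Figure D4:**
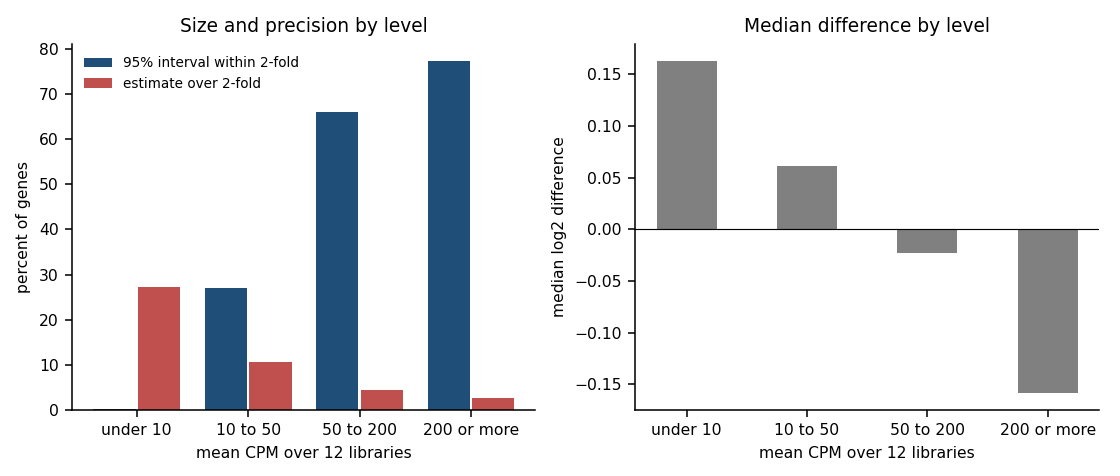
Left, percent of genes in each class of mean CPM whose 95% interval lies within a 2-fold difference (blue) and whose estimate exceeds 2-fold (red). Right, the median log2 difference of the heat response in each class, from 0.16 below 10 CPM to -0.16 at 200 CPM or more.

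How many genes passed depended on t0 library 1 of the conditioned lineage as well as on the tool. Without that library, edgeR called 239 genes (3.02%), 130 positive (1.64%) and 109 negative (1.38%), with 1753 at an unadjusted p under 0.05 (22.1%). That fit compares heat with t0 libraries 2 and 3, which stand apart. DESeq2 without library 1 called 468 genes (5.91%), 215 positive (2.71%) and 253 negative (3.19%), with 20.9% at an unadjusted p under 0.05. On the 12 t0 and heat libraries alone DESeq2 called 108 (1.42%). Leaving out t0 library 2 or 3 alone gave 0 calls. Without both edgeR called 0, with 432 at an unadjusted p under 0.05, and without all 4 libraries that stand apart it called 0, with 502 (6.34%). Both of the latter fits leave 1 t0 library in the conditioned lineage, which is then taken to vary like the other groups. Leaving out any single library but t0 library 1 gave 767 to 1214 genes at an unadjusted p under 0.05. Between 51 and 84 of the 100 genes of smallest p remained among the first 100 when 1 library was left out, with the 51 found without t0 library 1.

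The estimates of the named genes moved unequally when the 4 libraries that stand apart were left out, which leaves 1 t0 library in the conditioned lineage. ENSGALG00000011715.5 and ENSGALG00000023818.4 had differences of -1.97 ± 0.31 and -2.86 ± 0.48 without them, farther from 0 than with them. Heated library 2 of the non-conditioned lineage, the lowest of its group in both genes, is among those left out. Its removal alone moves both estimates that way. ENSGALG00000013234.6 also moved away from 0, to 2.27 ± 0.47, and ENSGALG00000031797.1 stayed near, at -1.75 ± 0.37. ENSGALG00000009433.6 stayed near as well, at -1.20 ± 0.34. ENSGALG00000009677.5 and ENSGALG00000033591.2 were nearer to 0, at 1.22 ± 0.27 and 1.47 ± 0.48. So were ENSGALG00000029872.1, at -1.78 ± 0.49 against -2.66 ± 0.48 with all libraries, and ENSGALG00000033789.2, at -0.37 ± 0.21 against -0.54 ± 0.18. No gene passed in that edgeR fit, with adjusted p of 0.111 and 0.115 for the first pair.

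**Figure D5:**
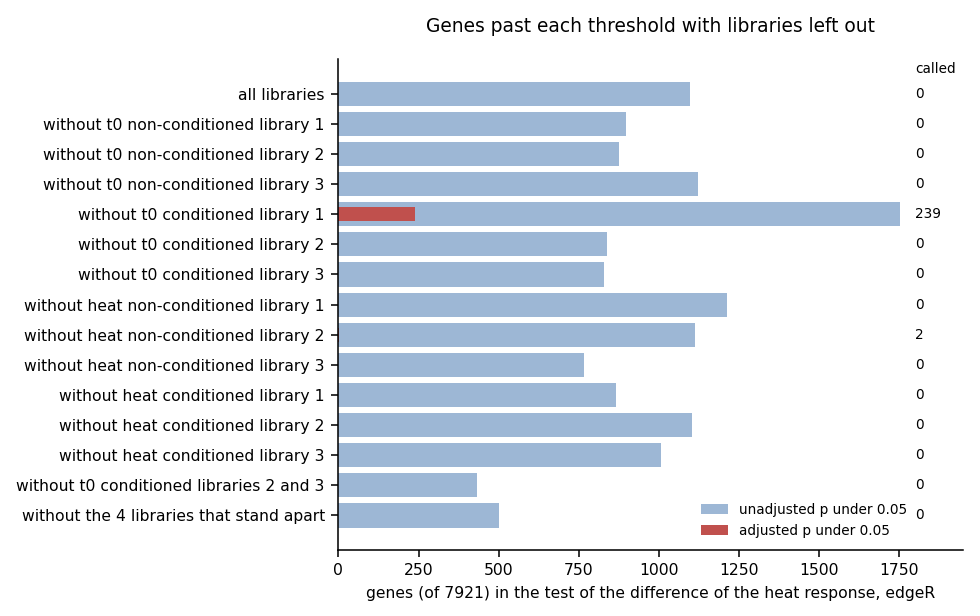
Genes of 7921 at an unadjusted (light) and an adjusted (red) p under 0.05 in edgeR's test of the difference of the heat response, with all libraries and with libraries left out. The number called is printed at the right and is 239 without t0 library 1 of the conditioned lineage, 2 without the second heated library of the other lineage and 0 elsewhere.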

How the data were processed

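Bulk MARS-seq, a method that counts transcripts from their 3′ ends, was run on 15 ng of RNA with single 100-base reads, per the labels' protocols. The submitters' processing notes name cutadapt, STAR, HTSeq, DESeq2 and galGal5. The sources used here give no versions, settings, collapse of molecular identifiers, strand or gene filter, so overlapping genes and paralogs could not be judged. The deposited table holds raw counts for 11207 Ensembl identifiers and the authors' normalized signal, which is each count divided by 1 factor per library and was not tested. None of the identifiers matched the reference table of 25635 genes, so the 9 gene lists and marker sets drawn up could not be applied.

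Counts of all 18 RNA libraries were filtered by group (7921 genes, 99.5% of counts), scaled by TMM and tested with edgeR 4.0.16 in R 4.3.3 in a group-means model (biological coefficient of variation 20%). DESeq2 1.42.0 and limma 3.58.1 served as alternatives, with filters, scalings, blocks, thinning and left-out libraries. The scripts were tested on simulated data. Standard errors are the log2 estimate over the square root of F, and intervals use the moderated degrees of freedom. Intervals are per gene and are not adjusted for the choice of genes by small p.

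By the naming rule, the 2 genes of smallest p in each direction with a mean of at least 10 CPM over the 12 libraries are given, and genes behind counts of 5 or fewer. Comparison, lists and rule were chosen with earlier results of these data known. The labels do not say whether each library is 1 chick, so p-values measure the spread between libraries. How many parents stand behind the libraries of a group is not known here. Libraries that share parents would not be independent for a difference between lineages. In bulk tissue, fewer cells of a type and less RNA per cell cannot be told apart.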

Additional observations from a re-analysis of the deposited data

Results flagged for a closer look

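In 4 of the named genes the heated libraries were all above the t0 libraries in one lineage and all below them in the other. They are ENSGALG00000009677.5 with a log2 difference of the heat response of 1.30, ENSGALG00000013234.6 with 1.68, ENSGALG00000029872.1 with -2.66 and ENSGALG00000031797.1 with -1.71. The difference was tested and none of the 4 passed in edgeR's test (adjusted p of 0.0936, 0.0936, 0.0657 and 0.124), while DESeq2 called all 4 (adjusted p of 0.00201, 0.00284, 0.000124 and 0.00704). Over all alternatives their adjusted p ranged from 0.000477 to 0.873, from 0.000646 to 0.478, from 2.1e-07 to 0.873 and from 0.000701 to 0.873. Opposite separation was seen in 0.795% and 0.821% of all genes in the 2 directions, and these genes were picked for small p or from a short list. Depth differed 3.58-fold between the lineages at t0, and its part in these values was not tested beyond thinning.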

How the results depend on the processing

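The count of 0 for the difference of the heat response was 0 with limma-voom, robust edgeR, median-ratio factors, the stricter filter and both replicate blocks. It was 123 with DESeq2, 64 with voom and quality weights, 3 without a low-count filter, 3 with the 12 libraries alone and 6 after thinning (0 to 7 in 10 further thinnings). Leaving out 1 library gave 0 to 239. Fits added after the data were seen gave 108 (DESeq2, 12 libraries), 468 (DESeq2 without t0 conditioned library 1) and 5 (DESeq2 without the 4 libraries that stand apart). The estimates of the named genes kept their direction in the alternatives run, except that ENSGALG00000041889.2 has no defined direction: without t0 non-conditioned library 2 that lineage holds 0 counts at t0 and under heat.

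For heat in the non-conditioned lineage, 4 genes became 27 with DESeq2, 12 with voom, 13 with quality weights, 8 with robust edgeR and 7 without t0 conditioned libraries 2 and 3. For heat in the conditioned lineage, 0 became 44 with DESeq2, 4 with quality weights and 1 after thinning, and 0 to 213 with 1 library left out. For the lineages at t0, 0 became 245 with DESeq2 and 446 with quality weights, and 0 to 438 with 1 library left out. For the lineages under heat, 2 became 10 with DESeq2, 1 with robust edgeR, 4 after thinning, 0 without t0 conditioned libraries 2 and 3, and 0 to 3 with 1 library left out. There the replicate block gave 4 genes by title number and 0 by description number. The cause of these changes was not tested.

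Libraries with the same title number were not treated as paired, since the chicks of t0 and heat were different animals. Nor did every correlation between the deviations of such libraries exceed 0.1. Of 18 such correlations 9 did, among them all 6 of libraries numbered 1. The median was 0.10 against -0.02 for unlike numbers, and a library was closest to its own number in 21 of 36 comparisons, a hint of shared variation from the data and not the design. At this depth, genes below 10 CPM allow almost no statement on a 2-fold difference.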
